A study of Oncorhynchus mykiss with 6 samples.

Results

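The genes described are those of ribosome biogenesis and the nucleolus, together with the DEAD-box and DEAH-box RNA helicase family, chosen by gene symbol in a deposited table of rainbow trout (Oncorhynchus mykiss) liver RNA-seq. The rule took every row whose symbol starts with one of a set of names, among them utp, rrp, nop, ddx, dhx, wdr36, wdr43, dkc1 and heatr1. It found 34 rows with 28 distinct symbols among the 5045 rows of the table. Control liver was kept at 18 °C and heat liver at 24 °C, the latter for 8 h, and the labels name no other agent. Each of these groups has 3 libraries. The wording of the labels places the liver itself at these temperatures, and neither strain, age nor the time of the control group is given there. Whether each library is from its own fish is not stated, so a p-value here speaks only of the variation among these libraries, possibly technical. The authors had filtered their list by outcome: in the authors' deposited table no adjusted p exceeds 0.049875 and no log2 fold change is smaller in size than 1.00019. A member of the pathway that is missing from this list was not analysed here, and a row that is listed had already been selected as changed.

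Ribosomes are built in the nucleolus, where RNA polymerase I transcribes a long precursor rRNA. Small nucleolar ribonucleoproteins (snoRNPs) modify this precursor, and the small-subunit processome folds and cuts the part that becomes the small ribosomal subunit. Other factors assemble the large subunit around the remainder, and RNA helicases remodel the particles at many steps. The pathway consumes much of a growing cell's transcription, and in mammalian and yeast cells it is known to respond to stress and nutrient supply. The ddx and dhx symbols also cover helicases that work on messenger RNA, in splicing, export and translation, and these are described apart, with the remaining helicases.

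Of the 34 rows, 33 had at least 10 counts in 3 or more libraries and were tested. At an adjusted p under 0.05 (limma-voom, Benjamini-Hochberg over all 4766 tested rows), 29 members rose in heat and 4 fell. Of all tested rows, 58.1% rose and 41.9% fell, so rises made up 87.9% of the members tested against 58.1% of the list. These calls depend on how libraries are scaled: when libraries were scaled by the median of ratios, 15 members rose and 4 fell, and 35.2% of all tested rows rose and 41.9% fell. That scaling takes the typical listed row as stable, although the authors' filter kept only changed rows. With the totals of whole libraries every tested row of the table passed the test, as its selection makes likely. Only the direction and size of a change carry information. The median log2 fold change was 1.32 over the tested members and 1.13 over all tested rows. Among rises alone the members were not large, with a median of 2.61-fold against 3.06-fold over all tested rises. At least 4-fold rises numbered 7 of the 33 members, or 21.2%, and 19.0% of all tested rows. In all 34 rows the 3 control and 3 heat libraries did not overlap in FPKM, the fragment count scaled by transcript length and library size. The same held for 99.5% of all tested rows, so it sets the members apart in no way. In bulk tissue, a change in the cells present and a change in RNA per cell cannot be told apart.

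**Figure D1:**
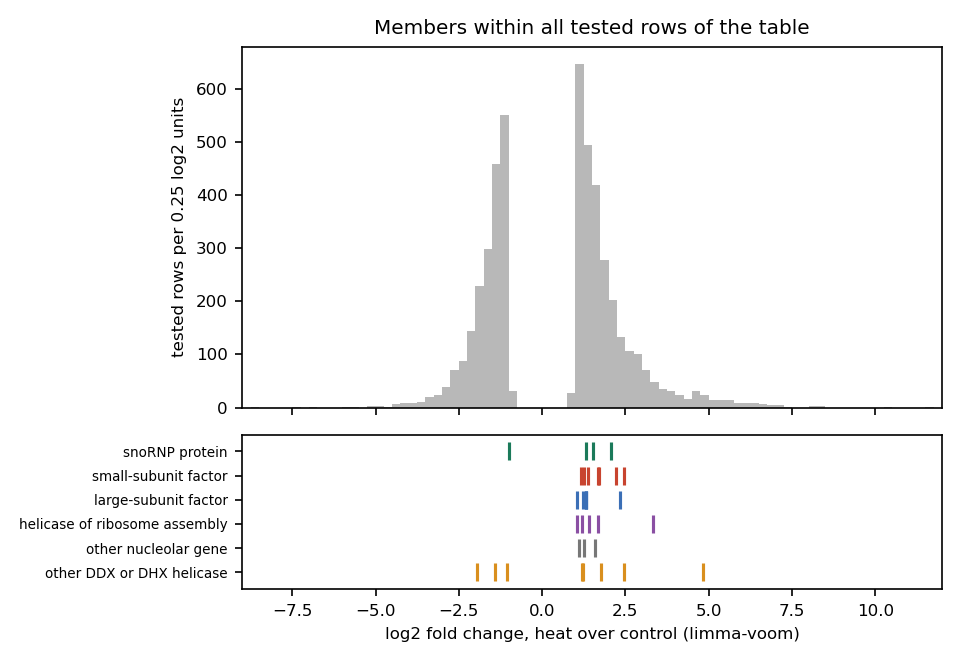
The histogram counts all 4766 tested rows by their limma-voom log2 fold change (heat over control), and the ticks under it mark the 33 tested members by role. The empty centre is the authors' filter on fold change, and 29 ticks lie to its right and 4 to its left. Of all tested rows 58.1% lie to its right and 41.9% to its left.

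These were genes of low abundance. In control liver, 15 of the 34 rows had a mean under 1 FPKM and only 1 had a mean over 10 FPKM, and the median of the 34 means was 1.16 FPKM. In heat the median was 3.39 FPKM and 3 rows exceeded 10 FPKM. Summed over the 34 rows, the level was 77.1, 76.1 and 73.9 FPKM in control replicates 1 to 3 and 183.3, 188.8 and 187.4 FPKM in heat replicates 1 to 3. The summed level was therefore 2.46-fold higher in heat, with each heat library above each control library. Much of this rise lay in the 2 copies of the helicase gene DDX5, described below with the helicases not assigned here to ribosome assembly. These copies summed to between 17.5 and 19.4 FPKM in control and between 69.9 and 76.1 FPKM in heat. They held 24.2% of the summed level in control and 39.6% in heat. Separation of the groups by library was seen for 99.5% of all tested rows. The median coefficient of variation of a member between libraries was 17.0% in control and 11.0% in heat. Most members had fewer counts in control and the heat libraries were deeper, so these values do not compare spread at equal depth. The values over all tested rows are not given here.

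**Figure D2:**
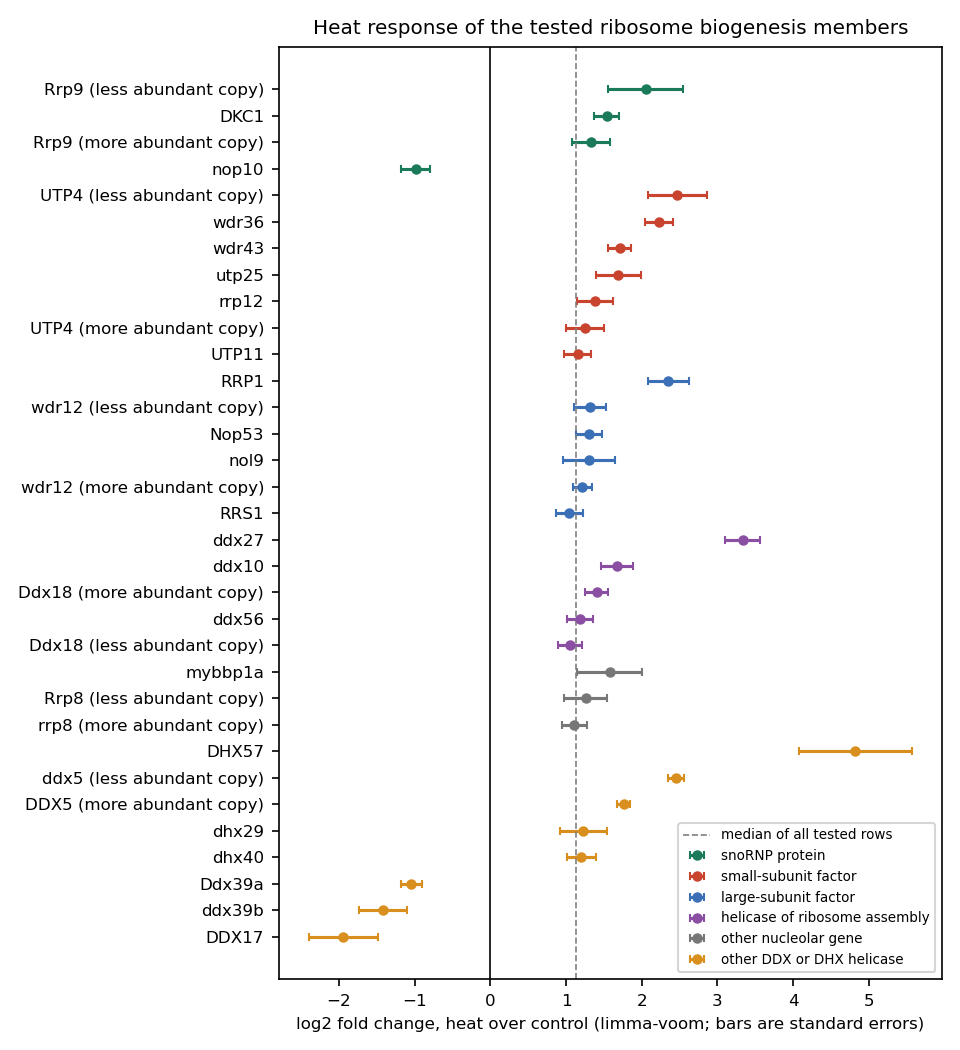
Points are the log2 fold changes (heat over control) of the 33 tested members with their standard errors from limma-voom, coloured by role, and the dashed line is the median of all tested rows (1.13). All small-subunit factors, large-subunit factors and helicases assigned to ribosome assembly lie to the right of 0, whereas nop10 and 3 other helicases lie to the left. Roles were assigned by symbol after the values could be seen, so this division is no separate result. Of all tested rows 58.1% rose and 41.9% fell.

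All 7 tested rows of small-subunit factors, 2 of them copies of UTP4, rose, against 58.1% of all tested rows, with a median log2 fold change of 1.69. With median-of-ratios scaling 4 of the 7 passed, where 35.2% of all tested rows rose. Those that did not pass were UTP11, rrp12 and the more abundant UTP4 copy. Here and in the following paragraphs, 3 values of a group are those of replicates 1 to 3 in this order, and a change is the limma-voom estimate with its standard error. WDR36, a protein of the small-subunit processome, was encoded by a gene at 1.03, 1.41 and 1.07 FPKM in control and 5.25, 5.86 and 5.35 FPKM in heat. The lowest heat library thus lay far above the highest control library, and wdr36 rose 4.67-fold (log2 fold change 2.22 ± 0.18, adjusted p = 1.27e-15). The processome gene wdr43 stood at 1.86, 2.06 and 1.91 FPKM in control and at 6.56, 5.91 and 6.71 FPKM in heat, a log2 fold change of 1.71 ± 0.15. UTP4, which in human cells belongs with WDR43 to the subcomplex of the processome tied to rRNA transcription, was listed as a pair of copies. Its less abundant copy had 0.281, 0.253 and 0.522 FPKM in control and 2.55, 1.70 and 1.51 FPKM in heat. That copy rose 5.55-fold (2.47 ± 0.39 on the log2 scale) and the more abundant one 2.37-fold (1.25 ± 0.25), from a mean of 0.935 to 2.18 FPKM. The other processome genes UTP11 and utp25 had log2 fold changes of 1.15 ± 0.18 and 1.69 ± 0.30, and rrp12, which acts in the maturation and export of ribosomal subunits, of 1.38 ± 0.24.

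The processome gene heatr1 was the 1 row with too few reads to test, and the 1 member whose identifier marks a locus assembled from the reads rather than an annotated gene. It had 25, 4 and 10 counts in the control libraries and 0, 2 and 4 counts in the heat libraries. The level was 8.31 times as high in control as in heat (exact 95% interval 3.49 to 24.0, counting error only). Control replicate 1 held most of these reads, and without it the ratio was 4.46 (exact 95% interval 1.61 to 14.2). With no filter on low counts heatr1 passed the limma-voom test as a fall, with an adjusted p of 0.000803. Of all 5045 rows 57.1% then rose and 42.9% fell, so every listed row passed and this call gives no support. No other row of that symbol was in the list, and this one may not give the level of heatr1 as a whole.

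Of the 4 snoRNP rows 3 rose and 1 fell, where 58.1% of all tested rows rose and 41.9% fell. With median-of-ratios scaling 2 of these rises passed, where 35.2% of all tested rows rose. DKC1, the gene of dyskerin, the pseudouridine synthase of the box H/ACA snoRNPs, stood at 2.68, 2.62 and 1.98 FPKM in control and 7.18, 7.38 and 6.03 FPKM in heat. It rose 2.90-fold (log2 fold change 1.54 ± 0.17, adjusted p = 1.46e-11). In contrast nop10, whose product is a small core protein of the same particles, was at 6.60, 7.24 and 9.40 FPKM in control and 4.38, 3.89 and 3.22 FPKM in heat. Its log2 fold change was -0.99 ± 0.19 (adjusted p = 7.50e-06). All 3 control libraries thus held less DKC1 than nop10 and all 3 heat libraries held more. The ratio of DKC1 to nop10 FPKM within a library, which no scaling of libraries can change, was 0.406, 0.361 and 0.210 in control and 1.64, 1.90 and 1.87 in heat. Because these rows were called in opposite directions, their ratio had to shift. Rrp9, a protein specific to the U3 snoRNP that guides the first cuts of the precursor, was listed as 2 copies that both rose. The more abundant copy had 0.918, 1.18 and 1.36 FPKM in control and 2.60, 2.94 and 3.30 FPKM in heat (1.33 ± 0.25 on the log2 scale). The less abundant copy rose by 2.05 ± 0.49 on the log2 scale and rested on 23 control counts in all.

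All 6 rows of large-subunit factors rose, against 58.1% of all tested rows. Their median log2 fold change was 1.30, against 1.13 over all tested rows. With median-of-ratios scaling 3 of them passed, where 35.2% of all tested rows rose. RRP1, an early factor of large-subunit assembly, stood at 0.347, 0.521 and 0.471 FPKM in control and at 2.37, 2.58 and 1.94 FPKM in heat. It rose 5.10-fold (log2 fold change 2.35 ± 0.27, adjusted p = 4.85e-11). WDR12 forms with PES1 and BOP1 a complex needed to process large-subunit rRNA. The more abundant copy of wdr12 had 4.93, 6.38 and 4.96 FPKM in control and 13.0, 12.1 and 12.2 FPKM in heat, and its log2 fold change was 1.21 ± 0.13. The less abundant copy had 3.08, 1.75 and 1.29 FPKM in control and 5.18, 4.18 and 5.09 FPKM in heat (1.32 ± 0.21). No row with a pes1 or bop1 symbol was in the list. Nop53, which in yeast docks the RNA exosome on the large-subunit precursor, stood at 1.92, 2.07 and 2.02 FPKM in control and 5.24, 5.11 and 4.51 FPKM in heat (1.31 ± 0.17). The log2 fold change of RRS1, which in yeast helps to place the particle of the smallest rRNA, was 1.04 ± 0.18. That of nol9, a polynucleotide kinase of spacer processing, was 1.30 ± 0.34 at a heat mean of 0.941 FPKM.

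Of the helicases assigned here to ribosome assembly, all 5 rows rose, against 58.1% of all tested rows. This assignment was made by symbol after the values could be seen, and other helicases may share that part. With median-of-ratios scaling 3 of the 5 passed, where 35.2% of all tested rows rose. In size ddx27 stood apart from the others. This helicase of large-subunit assembly had 0.786, 0.741 and 0.610 FPKM in control and 6.53, 6.93 and 8.59 FPKM in heat. It rose 10.1-fold (log2 fold change 3.33 ± 0.24, adjusted p = 3.28e-18), and 277 of the 2770 tested rises were larger. The helicase gene ddx10, whose yeast counterpart acts in the small-subunit processome, was at 0.747, 1.09 and 0.949 FPKM in control and 3.13, 2.89 and 2.83 FPKM in heat (1.68 ± 0.21). The more abundant copy of Ddx18 had 2.39, 1.94 and 2.64 FPKM in control and 6.15, 6.21 and 6.02 FPKM in heat (1.40 ± 0.16). The less abundant Ddx18 copy rose by 1.05 ± 0.16 and the large-subunit helicase gene ddx56 by 1.19 ± 0.17, both on the log2 scale.

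The nucleolar genes rrp8 and mybbp1a, which stand outside these groups, rose in all 3 rows, against 58.1% of all tested rows. None of the 3 passed with median-of-ratios scaling, where 35.2% of all tested rows rose. RRP8 is a nucleolar methyltransferase of large-subunit rRNA, and the more abundant rrp8 copy stood at 1.77, 2.50 and 2.50 FPKM in control and 4.69, 4.83 and 5.02 FPKM in heat (1.11 ± 0.17). Its less abundant copy rose by 1.26 ± 0.28 on the log2 scale. The gene of the nucleolar Myb-binding protein, mybbp1a, rose by 1.57 ± 0.43 on the log2 scale, from 0.0923 to 0.279 FPKM.

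**Figure D3:**
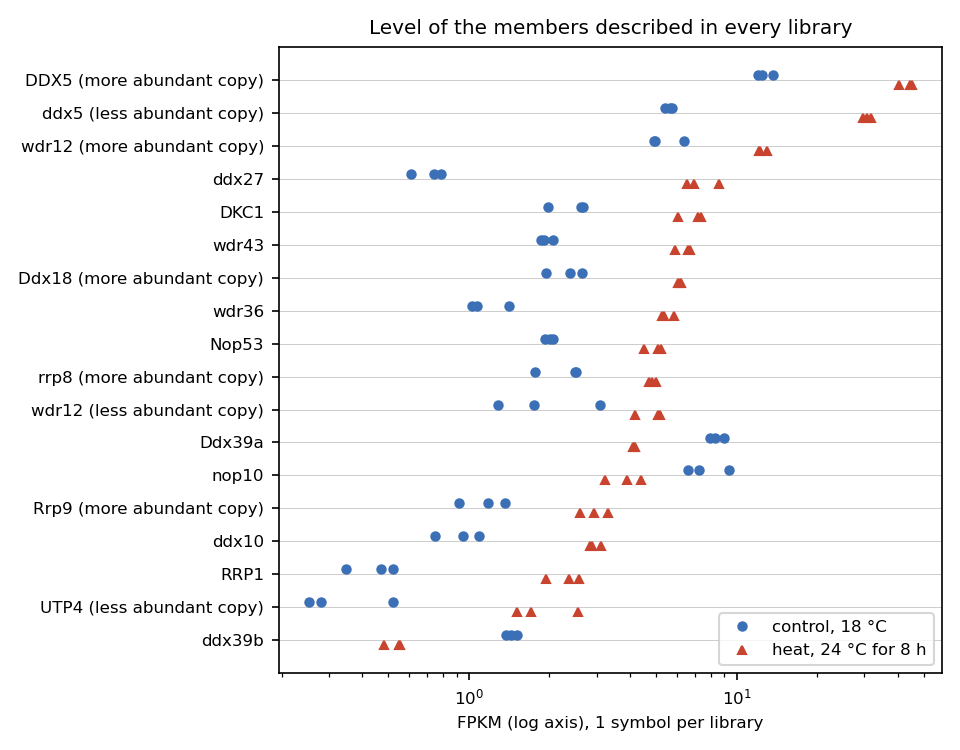
FPKM (log axis) of 18 members, with 3 control libraries (circles) and 3 heat libraries (triangles) per member. They were chosen by level, by size of change within each role, or because they fell. Heat lies above control for all of them except Ddx39a, nop10 and ddx39b. No member shown has overlapping groups, which also held for 99.5% of all tested rows.

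The remaining DEAD-box and DEAH-box helicases were set apart from the assembly group by symbol, after the values could be seen. This grouping does not mean that a helicase in it, such as DDX5 or DDX17, has no part in ribosome assembly. Of their 8 rows 5 rose and 3 fell, a division near that of all tested rows (58.1% and 41.9%). With median-of-ratios scaling 3 of these rises passed, where 35.2% of all tested rows rose. DDX5, a helicase with parts in transcription and splicing among others, was the most abundant member and was listed as 2 copies. The more abundant copy had 13.6, 12.4 and 12.1 FPKM in control and 40.2, 44.3 and 45.1 FPKM in heat, and rose 3.39-fold (log2 fold change 1.76 ± 0.08, adjusted p = 1.21e-25). The less abundant copy had 5.72, 5.66 and 5.40 FPKM in control and 29.7, 31.8 and 30.7 FPKM in heat, and rose 5.46-fold (2.45 ± 0.10, adjusted p = 1.49e-27). Both copies together held 25.1%, 23.7% and 23.6% of the summed FPKM of the 34 rows in control and 38.1%, 40.3% and 40.5% in heat. DDX5 thus took a larger share of the summed level in each heat library than in any control library.

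The helicases that fell were DDX17, Ddx39a and ddx39b. DDX17 is the close paralogue of DDX5 and went the other way, from 0.542, 1.15 and 0.543 FPKM to 0.174, 0.314 and 0.1 FPKM (log2 fold change -1.94 ± 0.46, adjusted p = 0.000119). It was far less abundant than either DDX5 copy in every library. Ddx39a and ddx39b encode paralogous helicases of messenger RNA export, the latter also of splicing. Ddx39a stood at 8.30, 7.96 and 8.97 FPKM in control and 4.16, 4.12 and 4.11 FPKM in heat (-1.04 ± 0.14). The paralogue ddx39b was at 1.51, 1.44 and 1.37 FPKM in control and 0.551, 0.555 and 0.483 FPKM in heat (-1.42 ± 0.32). Both had heat libraries that lay close together and well under the control libraries. The falls of these 3 genes and of nop10 were the only ones among the 33 tested members, where 41.9% of all tested rows fell. The untested heatr1 row was also lower in heat.

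The other helicases that rose were low or moderate in level. DHX29, which binds the small subunit in translation initiation, had a gene with a log2 fold change of 1.23 ± 0.31 at a heat mean of 0.658 FPKM, and dhx40 had 1.20 ± 0.19. DHX57 had the largest estimated change of the tested members but the fewest reads among them. It had 0, 2 and 0 counts in the control libraries and 50, 16 and 31 counts in the heat libraries, a ratio of 37.9 (exact 95% interval 10.2 to 318, counting error only). DHX57 passed the count filter through its heat libraries alone, and so had to differ to be tested. Its 2 control counts lay in control replicate 2, so without that library its control count was 0. Taking 3 counts over the remaining control libraries as a floor gave a ratio of 16.9. That value leaves out the only control reads and is no lower bound, as the interval over all libraries starts at 10.2.

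Of the 28 symbols, 6 were listed as 2 copies, and all 12 of these rows rose, where 58.1% of all tested rows rose. Several of these calls were lost with median-of-ratios scaling, as listed below, and 35.2% of all tested rows rose with it. Reads of near-identical copies can be split between them by the counting. That makes each copy's own level uncertain, and the 2 rows of a symbol are not separate evidence. The ratio of the more to the less abundant copy within a library does not depend on how libraries are scaled. For DDX5 it was 2.39, 2.19 and 2.23 in control and 1.36, 1.40 and 1.47 in heat, so the copies were closer in level in heat. For Ddx18 it was 1.31, 1.03 and 1.12 in control and 1.52, 1.35 and 1.51 in heat, so the copies were further apart in heat. For UTP4, Rrp9, rrp8 and wdr12 the control and heat ratios overlapped. An exact two-sided permutation test on the log2 ratios gave p = 0.1 for DDX5, for Ddx18 and for DKC1 over nop10, which is the smallest p that 3 against 3 libraries allow. Adjusted over the 7 ratios tested, these exact p-values were 0.233, and those of the other 4 pairs lay between 0.525 and 0.9. DKC1 and nop10 were paired by hand and had been called in opposite directions. Their ratio therefore had to shift, and its test gives no support.

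**Figure D4:**
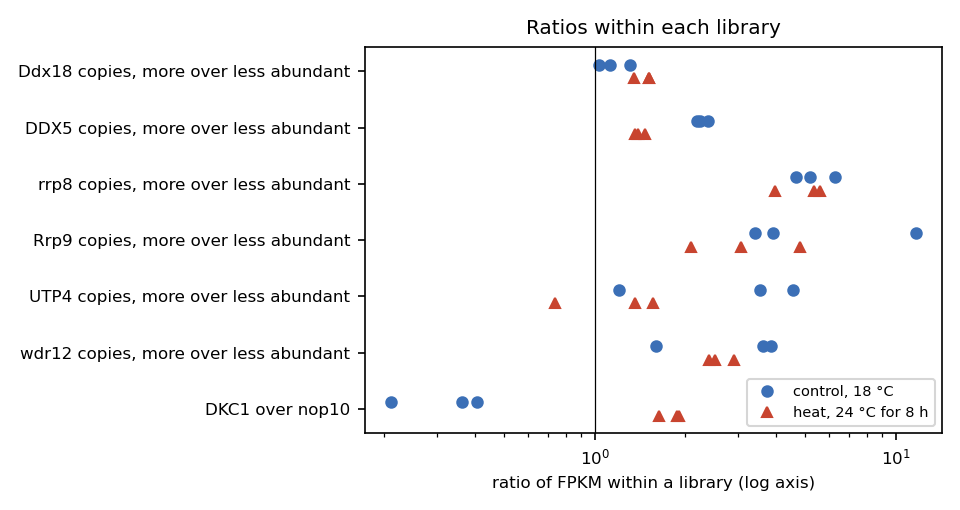
Each symbol is the ratio of 2 FPKM values within 1 library (log axis), for the 6 symbols with 2 copies and for DKC1 over nop10, with 3 control libraries (circles) and 3 heat libraries (triangles). DKC1 over nop10 lies under 1 in all control libraries and above 1 in all heat libraries, and the DDX5 ratio is lower in all heat libraries.

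The size of a change, and with it the call, depends on how libraries are scaled. The fold changes above rest on library totals that were worked out by dividing counts by FPKM. Under median-of-ratios scaling over the listed rows, a scaling that takes the typical row as stable, the median of all tested rows was 0.22 in place of 1.13 on the log2 scale. The 14 members that lost their call under it were UTP11, rrp12, RRS1, nol9, ddx56, dhx29, dhx40, mybbp1a, both rrp8 copies, the less abundant copies of Ddx18 and wdr12, and the more abundant copies of Rrp9 and UTP4. All 33 kept their direction under each of the 4 scalings run. No listed row changed by less than 1.00019 on the log2 scale in the authors' values, so by these the list holds no stable row. A call lost under median-of-ratios scaling therefore cannot tell which scaling is right. A scaling moves all rows by nearly the same amount, so the members' place among them, with a median of 0.40 against 0.22, is no further support.

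**Figure D5:**
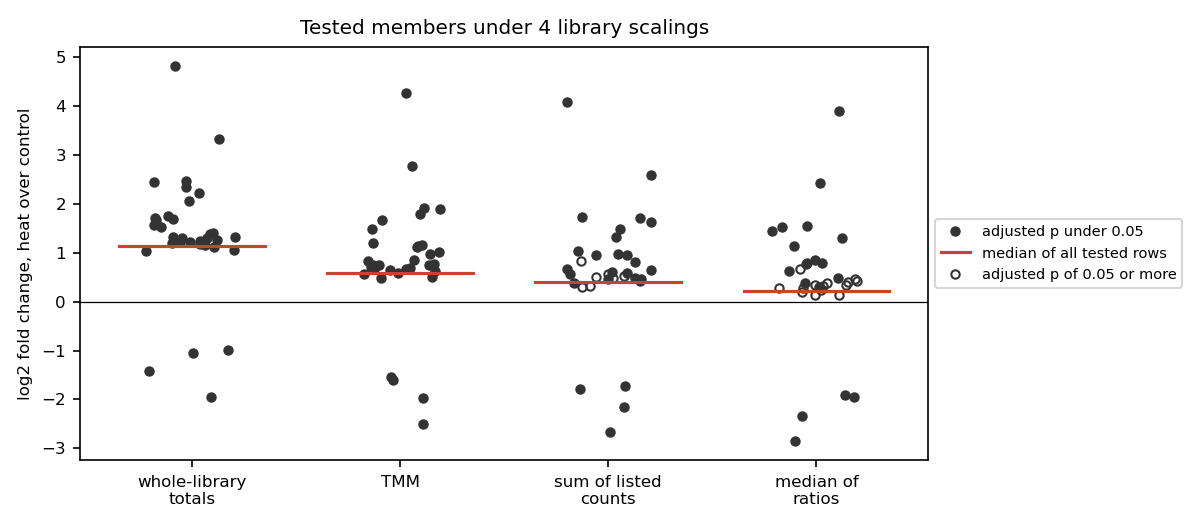
Points are the limma-voom log2 fold changes of the 33 tested members under 4 scalings of the libraries, filled where the adjusted p was under 0.05, and the line is the median of all tested rows. Points move down together from left to right; 4 lie under 0 throughout and 14 are open under median-of-ratios scaling.

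Genes of the same pathway outside the members mostly rose as well, in a list where 58.1% of all tested rows rose. Many of these calls were lost with median-of-ratios scaling, chosen for these lists after seeing the data, and 35.2% of all tested rows rose with it. All 6 listed rows of RNA polymerase I and its factors rose, 2 of them also with that scaling, among them polr1f, a polymerase subunit gene, from 3.60 ± 0.87 to 8.49 ± 0.74 FPKM (SD, n = 3), with a log2 fold change of 1.26 ± 0.16 (SE). UBTF, the factor that marks active rRNA genes, had a log2 fold change of 1.09 ± 0.20. All 6 listed rows of RNA polymerase III and its factors rose, 2 of them also with that scaling, with brf1a, an initiation factor gene, at 1.84 ± 0.25. A mixed list of other assembly factors rose in all 14 tested rows, and in 3 of them with median-of-ratios scaling, a smaller share than the 35.2%. It holds factors of late maturation and export such as sdad1, at 1.74 ± 0.15, and ltv1, at 1.14 ± 0.15. It also holds early nucleolar factors such as NOLC1, PDCD11 and both copies of Tbl3, and ltn1, a ligase of ribosome quality control. Of 12 rows for snoRNP, exosome and helper genes, 10 rose and 2 fell, and 6 of the rises passed with median-of-ratios scaling. Among them fbl, the methyltransferase of box C/D snoRNPs, rose from 5.33 ± 0.96 to 11.3 ± 1.49 FPKM. The H/ACA assembly factor NAF1 rose in both copies, with log2 fold changes of 2.90 ± 0.57 and 1.79 ± 0.42. The rows that fell were each 1 copy of a gene whose other copy rose, namely ruvbl1 and EXOSC2. For ruvbl1 the more abundant copy fell, from 9.25 to 4.16 FPKM, and the other rose from 0.474 to 1.79 FPKM. For EXOSC2 1 copy fell from 2.36 to 1.17 FPKM and the other rose from 2.41 to 6.88 FPKM. The ribosomal proteins themselves were few in the list, with 3 rises and 1 fall among 4 tested rows. The row that fell was the highest in level, rps27, at 105.9 ± 8.83 FPKM in control and 49.2 ± 0.832 FPKM in heat. Because of it the list summed to between 104.7 and 121 FPKM in control and between 64.3 and 70.3 FPKM in heat. The untested row RPL29 was listed at 0 in each heat library, and rpl5a rose from 3.88 ± 0.42 to 10.9 ± 1.16 FPKM. The authors' annotation gave ribosome biogenesis in eukaryotes as the first pathway of 17 rows, a list chosen after its values could be seen. Outside the members all 10 of these rows rose, 2 of them also with median-of-ratios scaling, and 6 of the 10 were already counted in the lists above.

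The 5 listed hepatocyte marker rows summed to between 3038 and 3186 FPKM in control and between 9074 and 9239 FPKM in heat. Nearly all of this lay in copies of HP and of the fibrinogen gene FGA. The remaining row, APOB, was scarce in control, at 0.0877 ± 0.0491 FPKM, and stood at 26.3 ± 0.547 FPKM in heat (log2 fold change 8.35 ± 0.33). Other hepatocyte markers looked for, among them alb and ttr, were not in the list. The listed markers of other cell types moved with the groups too, as the authors' filter on change required of any listed row. The 5 leukocyte and macrophage rows, 4 of them Cd163 and 1 csf1r1, summed to between 0.596 and 1.01 FPKM in control and between 7.16 and 9.76 FPKM in heat. Most of the sum in heat lay in 1 Cd163 row, which rose from 0.320 ± 0.156 to 6.53 ± 0.975 FPKM, whereas csf1r1 fell from 0.284 ± 0.0741 to 0.0513 ± 0.0120 FPKM (log2 fold change -2.38 ± 0.59). The stroma gene col1a1b fell from 22.7 ± 1.41 to 9.17 ± 0.30 FPKM, and 3 pancreas rows summed to at most 0.195 FPKM in control and between 2.75 and 4.37 FPKM in heat. No erythrocyte marker was in the list. The part of these cell types in the changes of the members was not tested.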

How the data were processed

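Per the labels' protocols, total RNA of rainbow trout liver was sequenced as cDNA libraries, 3 control and 3 heat, grouped by the labels. The submitters' processing notes name Bowtie2 2.2.8 and StringTie. The sources used here give no genome build, annotation, strand setting or test of the authors, so no coordinates or sequences are printed. The authors deposited whole-number read counts and FPKM per gene and library, together with group means, a p-value, an adjusted p and the log2 fold change, per the file headers. Fixed-width text of 8 characters per column cuts identifiers and longer symbols, but no member's symbol reached that length. Of the 34 rows, 20 carry a symbol that the RefSeq gene table of USDA_OmykA_1.1 also holds.

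Counts over the listed rows summed to between 1409460 and 1421082 in control and between 2663575 and 3586127 in heat libraries. The full depth is unknown, and its ratios were recovered as the median of count over FPKM in 451 rows with at least 200 counts and 5 FPKM in every library. Relative to control replicate 1 they spanned 0.999 to 1.02 in control and 1.14 to 1.55 in heat. Limma-voom (limma 3.58.1, R 4.3.3) was fitted to the counts with these totals on the 4766 rows with at least 10 counts in 3 libraries. P was adjusted by Benjamini-Hochberg over all of them, and the script was tested on simulated data. The edgeR and DESeq2 alternatives were not run. A check of the layout could not verify the columns as counts, although all their values are whole numbers and limma-voom used them as counts. Ratios and exact tests were computed with scipy 1.17.1 under Python 3.11.15, and plots with matplotlib 3.10.9.

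The members and lists were chosen with earlier results of these data known, and roles were assigned by symbol after the values could be seen. Values in every library are given for members with a group mean of at least 1 FPKM that were among the 3 largest changes of a role or fell, and for the 3 most abundant. For heatr1 and DHX57 counts are given as well, and for DDX17 FPKM, all chosen after their values were seen, as were the genes named outside the members.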

Additional observations from a re-analysis of the deposited data

How the results depend on the processing

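The rise of 29 and the fall of 4 members were called alike with TMM scaling, with log2(FPKM + 0.1) and log2(FPKM + 1) in limma, and on leaving out each of the 6 libraries. In the FPKM fits and without 1 library, 58.0% to 58.1% of all tested rows rose and 41.8% to 41.9% fell. Nearly every row of the selected list thus passed in these fits, and the unchanged calls give no support. With TMM scaling 53.2% of all tested rows rose and 41.9% fell. Replicate numbers did not pair the libraries (correlations of same-numbered deviations of 0.027, 0.012 and -0.0093), and with a replicate block 29 rose, 4 fell and the median log2 fold change was 1.30. With the replicate block 58.1% of all tested rows rose and 41.9% fell. Called rises numbered 15 of 33 members with median-of-ratios scaling (35.2% of all tested rows) and 22 of 33 with scaling by listed counts (46.3%). Without the ddx and dhx symbols 20 members were left, and 19 of them rose (58.1% of all tested rows). Called falls numbered 1 of these 20 members (41.9% of all tested rows). They numbered 2 of 28 with at least 50 counts in 3 libraries (36.7%), and 5 of 34 with no filter (42.9%). The added fall with no filter was heatr1. The median log2 fold change of the members, 1.32, became 0.40 with median-of-ratios, 0.76 with TMM and 0.58 with listed-count scaling. It was 1.23 with log2(FPKM + 0.1), 0.85 with log2(FPKM + 1), and between 1.28 and 1.45 without 1 library. For the other lists, an alternative chosen after seeing the data, called rises with median-of-ratios scaling numbered 2 for RNA polymerase I, 2 for RNA polymerase III, 6 for snoRNP and exosome genes, 3 for other assembly factors, 1 for ribosomal proteins, 5 for growth regulators and 2 for the annotated pathway outside the members. Of all tested rows 35.2% rose with median-of-ratios scaling. The lists of RNA polymerase I, RNA polymerase III, other assembly factors, ribosomal proteins and the annotated pathway did not exceed that share. With listed-count scaling 46.3% of all tested rows rose. Called rises then numbered 2 of 6 rows for RNA polymerase I, 5 of 6 for RNA polymerase III and 10 of 12 for snoRNP and exosome genes. They numbered 7 of 14 for other assembly factors, 2 of 4 for ribosomal proteins and 7 of 13 for growth regulators. For the annotated pathway outside the members they numbered 5 of 10. With 1 row per symbol 27 members were left, and 23 rose and 4 fell, where 58.1% of all tested rows rose and 41.9% fell. Both TMM and median-of-ratios factors came from own code and take the typical listed row as stable, although the authors' filter kept only changed rows. Low depth limits DHX57, heatr1, mybbp1a, DDX17 and the less abundant Rrp9 and UTP4 copies, each with under 50 counts in its lower group. The edgeR and DESeq2 alternatives were not run.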

Other observations

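Growth regulators of the pathway, a list written with earlier results of these data known, went both ways, with 10 rises and 3 falls among 13 tested rows (limma-voom, adjusted p under 0.05), where 58.1% of all tested rows rose and 41.9% fell. With median-of-ratios scaling 5 of the 10 rises passed, where 35.2% of all tested rows rose. The myc family, whose transcription factors are known to drive ribosome biogenesis genes in mammals, did not move together. The row named myc fell at a low level, from 0.611 ± 0.151 to 0.218 ± 0.133 FPKM (SD, n = 3), with a log2 fold change of -1.73 ± 0.57 (SE). In contrast mycb rose from 0.940 ± 0.251 to 2.68 ± 0.141 FPKM (1.54 ± 0.25), and myclb rose from 0.166 ± 0.0779 to 1.07 ± 0.166 FPKM (2.76 ± 0.38). Among genes of proteins that compete with Myc for its partner, both copies of Mxd4 fell, the more abundant from 6.20 ± 0.015 to 2.49 ± 0.268 FPKM, whereas mxi1 and Mnt rose, with log2 fold changes of 1.97 ± 0.39 and 1.32 ± 0.30. The gene larp1, whose product binds messenger RNAs of ribosomal proteins in mammals, rose from 2.68 ± 0.313 to 8.56 ± 0.607 FPKM (1.66 ± 0.12). All these genes were named after their values were seen.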
